A study of Mus musculus with 6 samples.

Results

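Imprinted genes are transcribed mainly from a single parental copy, set by DNA methylation laid down in the egg or the sperm. Many of them act on fetal growth, and in general those read from the father's copy (Igf2, Mest, Peg3, Dlk1, Plagl1) promote growth while those read from the mother's copy (H19, Igf2r, Cdkn1c, Grb10, Meg3) restrain it. After birth most of these genes are turned down, and several come back or are lost in tumors.

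The 10 genes described here (H19, Igf2, Igf2r, Mest, Peg3, Dlk1, Meg3, Cdkn1c, Plagl1 and Grb10) were chosen by name as an imprinted growth-control set, with their counts in these libraries already known, so their values are a description. All 10 were found among the 55385 genes of the tables and all 10 passed the filter on low counts, which left 19427 genes. The series holds 6 RNA libraries of mammary tumors, labelled as 3 from control mice and 3 from mice fed DMHCA, a dimethyl cholenamide and oxysterol agonist of the liver X receptors. All were female NeuT/ATTAC mice, which carry an activated rat ErbB2 gene under the MMTV promoter and an FKBPv-caspase-8 fusion under the FABP4 promoter that the dimerizer AP20187 switches on in fat. AP20187 (0.4 mg/kg) was given from 6 weeks of age, and DMHCA (0.05% of the diet, about 100 mg/kg) from 8 weeks. The control label reads "AP20187 Vehicle", which can mean AP20187 in vehicle or vehicle alone. The study describes its tumors as coming from mice that received the dimerizer. The label names the tissue as fibrosis of the mammary gland and the study names it as tumor. The luminal keratins and adhesion genes Krt8, Krt18, Krt19, Epcam and Cdh1 summed to between 2930 and 4422 TPM, a share of all transcripts scaled for length, in every library.

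Library totals ran from 46358654 to 63420620 expected counts. DMHCA libraries 1 and 3 were nearly the same, with a biological coefficient of variation of 0.0327 against 0.376 to 0.579 for every other pair within a group, and they were summed to 1 sample. Between these 2 libraries the 10 genes differed by a median of 1.07-fold and at most 1.3-fold (Dlk1). Each comparison therefore rests on 3 control and 2 DMHCA samples, and the p-values measure only the spread between these samples. In whole tumor pieces, fewer cells of a type and less RNA per cell cannot be told apart.

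No gene of the set passed the edgeR quasi-likelihood test after Benjamini-Hochberg adjustment, 0 of 10, and the background over all genes tested was also 0% (0 of 19427). Their smallest adjusted p (edgeR) was 0.644, which was also the smallest over all genes. At an unadjusted p under 0.05, edgeR picked 2 of the 10, Mest and Grb10, against a background of 7.61%. DESeq2 picked the same 2 genes at an adjusted p under 0.05, both on the 5 samples, where 1.22% of genes passed, and on the 6 libraries as separate samples, where 3.98% passed. Both DMHCA samples lay above all 3 controls for 4 of the 10 genes (H19, Mest, Dlk1 and Grb10; 13.8% of all genes), and both lay below for 0 of the 10 (12.2% of all genes). The median log2 fold change, DMHCA minus control, was 0.46 over the 10 genes, 7 positive and 3 negative, and -0.03 over all genes tested.

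**Figure D1:**
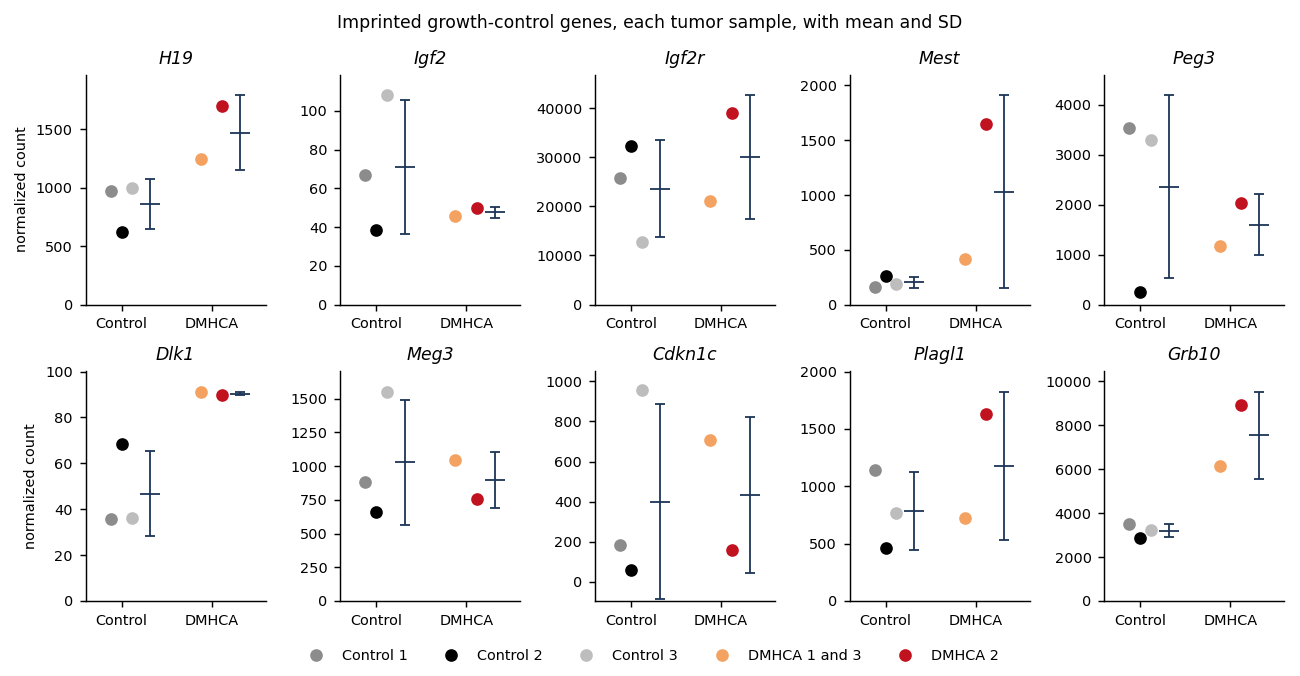
Normalized counts of the 10 genes in each sample, on a linear axis of its own for each gene. Points are samples, with DMHCA libraries 1 and 3 as 1 sample, and the horizontal mark and bar are the group mean and SD (control n = 3, DMHCA n = 2). H19, Mest, Dlk1 and Grb10 show DMHCA points above every control point, and Peg3 shows a single low control.

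The insulin-like growth factor genes come first, since Igf2 is the ligand of the axis. Igf2 (ENSMUSG00000048583, chromosome 7 of GRCm38, 142650766 to 142666816, minus strand) was close to silent. It held 67, 38.7 and 108 normalized counts in control tumors 1, 2 and 3, 45.8 in DMHCA tumors 1 and 3 and 49.8 in DMHCA tumor 2. Both DMHCA values lay within the control range. The means were 71.1 ± 34.7 (SD, n = 3) and 47.8 ± 2.84 (SD, n = 2). Its log2 fold change was -0.57 with a standard error (SE) of 0.62 and an adjusted p of 0.79 (edgeR), and it was -0.15 without control tumor 3 and -0.87 without control tumor 2. On log2(TPM + 1) it was -0.09. The deposited counts behind it were 34 to 83 per library, with exact 95% Poisson intervals from 23.5 to 47.5 at the lowest and from 66.1 to 103 at the highest, which cover counting error only. Igf2 shares 3596 exon bases on the same strand with Gm49394, so its reads could be split between these genes, although Gm49394 held at most 6.39 counts.

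H19 (ENSMUSG00000000031, chromosome 7, 142575529 to 142578143, minus strand) is the non-coding RNA that lies next to Igf2 and is read from the other parental copy. It held 970, 618 and 995 normalized counts in control tumors 1, 2 and 3, 1242 in DMHCA tumors 1 and 3 and 1696 in DMHCA tumor 2. The DMHCA values were above all controls, and control tumor 2 was the lowest. The means were 861 ± 211 (SD, n = 3) and 1469 ± 321 (SD, n = 2), and the log2 fold change was 0.77 (SE 0.35, adjusted p = 0.644, edgeR). With each library left out in turn it stayed between 0.57 and 0.88. By TPM, which divides by length, H19 exceeded Igf2 in every library, from 6.61 times in control library 3 to 27.6 times in DMHCA library 2. H19 is also the host of a microRNA, and its precursor lies within an H19 exon (84 bases). The mature strands are printed because they are the known small products of this RNA. Capitals mark the seed, bases 2 to 8, as in RefSeq:
miR-675-5p: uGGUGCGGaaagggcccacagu
miR-675-3p: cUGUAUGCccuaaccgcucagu
The precursor row Mir675 held at most 0.88 expected counts, so H19 values say nothing of the mature strands, which these libraries did not measure.

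Igf2r (ENSMUSG00000023830, chromosome 17, 12682406 to 12769664, minus strand) encodes the receptor that carries IGF2 to the lysosome for breakdown. It had the highest TPM of the set. The control tumors held 25727, 32264 and 12790 normalized counts, DMHCA tumors 1 and 3 held 21167 and DMHCA tumor 2 held 38924. The groups overlapped, and DMHCA tumor 2 was the highest and control tumor 3 the lowest sample. The log2 fold change was 0.35 (SE 0.48, adjusted p = 0.835, edgeR). It turned to -0.12 without DMHCA tumor 2, was 0.05 without control tumor 3 and was 0.64 without control tumor 2. Airn, the antisense RNA that silences the paternal Igf2r copy in cis, moved with it. The TPM ratio of Igf2r to Airn kept between 2.66 and 3.84 in all 6 libraries, while Igf2r TPM itself ran from 30.3 to 105. The gene bodies of Igf2r and Airn overlap on opposite strands and share no annotated exon base. Whether reads of the one gene were counted for the other was not tested, and whether strand was used in counting was not given.

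Grb10 (ENSMUSG00000020176, chromosome 11, 11930508 to 12038683, minus strand) encodes an adaptor that binds the insulin and IGF1 receptors and dampens their signal. It held 3501, 2882 and 3227 normalized counts in control tumors 1, 2 and 3, 6135 in DMHCA tumors 1 and 3 and 8943 in DMHCA tumor 2. The controls sat close together, within 1.21-fold of each other, and both DMHCA samples lay above them. The means were 3203 ± 310 (SD, n = 3) and 7539 ± 1985 (SD, n = 2), a 2.35-fold difference. This gave a log2 fold change of 1.23 (SE 0.27), with an unadjusted p of 0.00282 and an adjusted p of 0.644 (edgeR). DESeq2 gave an adjusted p of 0.0484 on the 5 samples and 0.00976 on the 6 libraries. With each library left out the log2 fold change stayed between 0.98 and 1.29. The lowest came without DMHCA tumor 2, so the remaining DMHCA sample also stood above the controls. Its relative Grb7, an ErbB2 adaptor gene, showed a log2 fold change of -0.01 (SE 0.34). The TPM ratio of Grb7 to Grb10 was 1.77 to 3.8 in the controls and 0.928 to 1.64 after DMHCA.

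Grb10 has 2 promoters in the RefSeq table (GRCm38.p6, 250 bases before to 50 after the start), and they are shown since they differ sharply in CpG content, the dinucleotide that carries the methylation of imprinted regions. CpG is in capitals:
Grb10, chr11:12037371-12037670, minus strand: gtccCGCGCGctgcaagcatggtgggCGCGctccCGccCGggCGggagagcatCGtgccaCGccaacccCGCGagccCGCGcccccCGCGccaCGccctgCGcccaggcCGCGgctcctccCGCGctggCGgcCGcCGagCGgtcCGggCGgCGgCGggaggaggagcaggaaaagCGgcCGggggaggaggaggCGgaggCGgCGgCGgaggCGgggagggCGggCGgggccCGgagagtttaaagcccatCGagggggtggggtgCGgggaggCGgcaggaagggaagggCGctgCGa
Grb10, chr11:12027922-12028221, minus strand: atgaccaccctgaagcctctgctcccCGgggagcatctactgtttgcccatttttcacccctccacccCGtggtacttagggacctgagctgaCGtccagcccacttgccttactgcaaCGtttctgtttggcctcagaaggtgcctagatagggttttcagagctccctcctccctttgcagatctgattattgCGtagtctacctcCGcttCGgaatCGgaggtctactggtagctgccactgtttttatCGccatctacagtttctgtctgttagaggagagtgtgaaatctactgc
The first holds 45 CpG, more than 98.1% of the 32851 promoters in the table, and 5 copies of the GC box GGGCGG on either strand, a motif found in 35.7% of all promoters. The second holds 9 CpG and 0 GC boxes. The median promoter holds 7 CpG. Gene-level counts do not tell which promoter was used. Methylation of these promoters was not measured, and CpG content does not tell which of them, if any, is part of the imprinted region. The mean length of the Grb10 transcripts differed by at most 1.02-fold between libraries (4883 to 4986 bases).

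**Figure D2:**
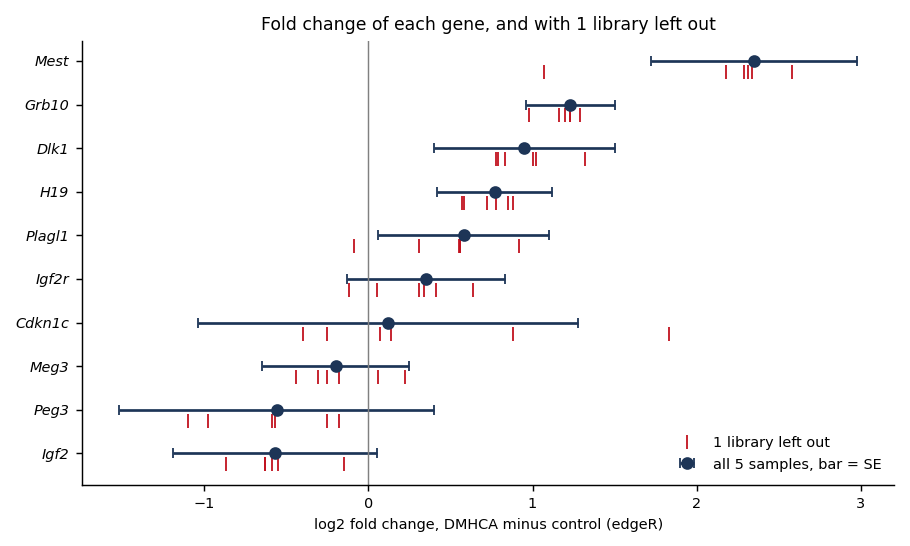
Log2 fold change of each gene, DMHCA minus control, from edgeR on 5 samples (points, with SE as bars), and the value with 1 of the 6 libraries left out (red ticks). Mest, Grb10, Dlk1 and H19 stay above 0 in every case, Igf2 and Peg3 stay below, and the ticks of Cdkn1c run from -0.40 to 1.83.

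The rest of the IGF axis, 18 of 20 listed genes tested, had a median log2 fold change of -0.21, and 0 passed the adjusted edgeR test. At an unadjusted p under 0.05 it held 1 gene of 18, a share no higher than the 7.61% of all genes. This was Igfbp3, a carrier of circulating IGF. Igfbp3 had 4605, 5366 and 2813 normalized counts in control tumors 1, 2 and 3 and 10162 and 8532 in the DMHCA samples, a log2 fold change of 1.13 (SE 0.33, adjusted p = 0.644, edgeR). Stc1, which encodes an inhibitor of the IGF-binding protein protease, had 0.57. On the other side stood Igfbp6, an IGF2-preferring binding protein, with -1.09 and Stc2 with -0.80. The ligand Igf1 had -0.37 (SE 0.52), its receptor Igf1r -0.07 (SE 0.33) and the mammary binding protein Igfbp5 -0.68 (SE 0.67). For these last 3 genes the groups overlapped.

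Mest (ENSMUSG00000051855, chromosome 6, 30723547 to 30748465, plus strand) encodes a protein of the hydrolase family and is read from the paternal copy. It showed the highest fold change of the set. The control tumors held 157, 262 and 188 normalized counts, DMHCA tumors 1 and 3 held 412 and DMHCA tumor 2 held 1652. Both DMHCA samples lay above the controls, but they differed from each other by 4.01-fold. The means were 202 ± 53.8 (SD, n = 3) and 1032 ± 877 (SD, n = 2). This gave a log2 fold change of 2.35 (SE 0.63), with an unadjusted p of 0.00836 and an adjusted p of 0.644 (edgeR). Without DMHCA tumor 2 it was 1.07. DESeq2 gave an adjusted p of 0.038 on the 5 samples and 0.024 on the 6 libraries. Mest shares 912 exon bases on the opposite strand with Copg2, a coat protein gene with 3303 to 6647 counts, far above Mest itself, so without strand some Mest reads could belong to Copg2. Copg2 had a log2 fold change of 0.21 (SE 0.37), and was 1.92 times higher in DMHCA tumor 2 than in DMHCA tumors 1 and 3.

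RefSeq gives Mest 3 promoters, an upstream one with 8 CpG and a nearly coinciding pair with 17 CpG each, of which the downstream one is shown because it lies in the CpG-rich start that is methylated on the maternal copy. CpG is in capitals:
Mest, chr6:30737803-30738102, plus strand: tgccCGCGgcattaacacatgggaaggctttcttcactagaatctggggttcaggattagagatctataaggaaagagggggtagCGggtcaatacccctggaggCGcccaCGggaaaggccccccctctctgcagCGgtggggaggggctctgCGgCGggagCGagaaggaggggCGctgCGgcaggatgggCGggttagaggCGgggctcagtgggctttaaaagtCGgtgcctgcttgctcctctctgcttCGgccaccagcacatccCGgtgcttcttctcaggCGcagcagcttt
It holds more CpG than 68.6% of all promoters, and 1 GC box. Mest also hosts miR-335 within an intron. The mature strands, with seeds in capitals, are:
miR-335-5p: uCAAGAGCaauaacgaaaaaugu
miR-335-3p: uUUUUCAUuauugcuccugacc
The row of the precursor, Mir335, was listed at 0 TPM in every library, so no level of miR-335 can be read from these data.

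Dlk1 (ENSMUSG00000040856, chromosome 12, 109452823 to 109463336, plus strand) encodes a membrane protein of the Notch ligand family that keeps preadipocytes undifferentiated. Its level was low. The control tumors held 35.8, 68.3 and 36.3 normalized counts, DMHCA tumors 1 and 3 held 90.9 and DMHCA tumor 2 held 89.8. The groups did not overlap. The means were 46.8 ± 18.6 (SD, n = 3) and 90.4 ± 0.769 (SD, n = 2), and the log2 fold change was 0.95 (SE 0.55, adjusted p = 0.672, edgeR), with a range of 0.78 to 1.32 when each library was left out. The deposited counts were only 28 to 83. In control library 2 the 60 counts had an exact 95% Poisson interval from 45.8 to 77.2, and in DMHCA library 1 the 68 counts had 52.8 to 86.2, so these 2 libraries cannot be separated at this depth. The mean transcript length of Dlk1 was 957 to 1213 bases in the controls and 1475 to 1643 after DMHCA, a difference in isoform mix as estimated from these few reads. On the TPM scale, which divides by that length, the log2 fold change was 0.35 with a pseudocount of 1 and 0.60 with 0.1 (limma), and the libraries held 0.76, 1.11 and 0.93 TPM in the controls and 1.15, 1.6 and 1.5 after DMHCA. The start of Dlk1 is shown for comparison with the CpG-rich starts of Grb10 and Mest, CpG in capitals:
Dlk1, chr12:109452573-109452872, plus strand: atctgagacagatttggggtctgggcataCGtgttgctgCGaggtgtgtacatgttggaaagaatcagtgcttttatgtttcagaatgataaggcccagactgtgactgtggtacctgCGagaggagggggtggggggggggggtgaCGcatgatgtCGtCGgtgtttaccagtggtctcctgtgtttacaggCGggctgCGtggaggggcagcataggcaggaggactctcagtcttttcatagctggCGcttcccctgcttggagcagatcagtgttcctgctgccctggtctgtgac
It holds 9 CpG and 0 GC boxes.

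Meg3 (ENSMUSG00000021268, chromosome 12, 109541001 to 109571726, plus strand) is a non-coding RNA read from the maternal copy of the same domain and has been described as a tumor suppressor. The control tumors held 880, 657 and 1551 normalized counts, DMHCA tumors 1 and 3 held 1042 and DMHCA tumor 2 held 753. Both DMHCA values fell inside the control range. The log2 fold change was -0.20 (SE 0.45, adjusted p = 0.91, edgeR), and it changed sign without control tumor 3 (0.22) and without DMHCA tumor 2 (0.06). Rian, a second maternal RNA of the domain, had a log2 fold change of 0.30 (SE 0.31). Meg3 exceeded Dlk1 by 7.05 to 28.3 times in TPM, and the ratio was lowest in control library 2. Meg3 shares 1228 exon bases with Gm26906 on the other strand.

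Cdkn1c (ENSMUSG00000037664, chromosome 7, 143458339 to 143461050, minus strand) encodes p57, an inhibitor of cyclin-dependent kinases. Its samples spread more than the groups. The control tumors held 182, 60.3 and 956 normalized counts, DMHCA tumors 1 and 3 held 706 and DMHCA tumor 2 held 159. High and low samples occurred in both groups. The means were 400 ± 486 (SD, n = 3) and 433 ± 387 (SD, n = 2). The log2 fold change was 0.12 (SE 1.16, adjusted p = 0.981, edgeR), and 4 of the left-out libraries moved it, to 1.83 without control tumor 3, 0.88 without DMHCA tumor 2, -0.25 without control tumor 1 and -0.40 without control tumor 2. It was 0.14 and 0.07 without DMHCA library 1 or 3.

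In the Kcnq1 domain, which holds Cdkn1c, DMHCA tumor 2 lay below DMHCA tumors 1 and 3 for most neighbours. The ratio of DMHCA tumor 2 to DMHCA tumors 1 and 3 was 0.225 for Cdkn1c, 0.0717 for Slc22a18, 0.19 for Phlda2, a placental growth restrainer, 0.176 for Ascl2 and 0.32 for Kcnq1. It was 0.691 for Kcnq1ot1, the paternal antisense RNA of the domain, and 0.873 for Tssc4. The controls did not share that order. Control tumor 2 was lowest for Cdkn1c but highest of the controls for Slc22a18, with 719 normalized counts against 269 and 533.

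The fold changes of the other CDK inhibitor genes went both ways. Cdkn1a exceeded Cdkn1c by 1.71 to 105 times in TPM and Cdkn1b by 3.37 to 104 times, both ratios highest in control library 2. Of the 7 CDK inhibitor genes, Cdkn1c included, 0 passed either edgeR threshold, which 0% (adjusted) and 7.61% (unadjusted) of all genes did, so nothing is read from this count. Cdkn2c had a log2 fold change of 0.53 and Cdkn1a 0.56, while Cdkn2b had -1.06, with 1504, 926 and 666 normalized counts in the controls and 355 and 639 after DMHCA, and Cdkn2d had -0.47.

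Plagl1 (ENSMUSG00000019817, chromosome 10, 13060504 to 13131694, plus strand) encodes a zinc finger factor that acts on other imprinted genes. The control tumors held 1140, 461 and 764 normalized counts, DMHCA tumors 1 and 3 held 723 and DMHCA tumor 2 held 1634. The groups overlapped, and only DMHCA tumor 2 lay above all controls. Its log2 fold change was 0.58 (SE 0.52, adjusted p = 0.754, edgeR). It was -0.09 without DMHCA tumor 2, 0.31 without control tumor 2 and 0.92 without control tumor 1. The letters GGGGCCCC, a core that PLAGL1 is known to bind, were found on either strand in 1.08% of all promoters and in 1 of the 15 promoters of the set, that of Peg3. RefSeq promoters were given for 8 of the 10 genes, not for H19 and Cdkn1c. The DR4 repeat of the liver X receptors, searched in its exact form, occurred in 0.0152% of all promoters and in 0 of these 15.

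Peg3 (ENSMUSG00000002265, chromosome 7, 6703892 to 6730431, minus strand) encodes a zinc finger protein with known roles in maternal behaviour and in cell death downstream of p53. Control tumors 1 and 3 held 3527 and 3297 normalized counts and control tumor 2 held 245, a span of 14.4-fold. DMHCA tumors 1 and 3 held 1163 and DMHCA tumor 2 held 2027. Both DMHCA values lay between the low control and the high ones. The log2 fold change was -0.56 (SE 0.96, adjusted p = 0.871, edgeR), and it was -1.10 without control tumor 2, -0.98 without DMHCA tumor 2, -0.18 without control tumor 1 and -0.25 without control tumor 3. On the TPM scale it was 0.00 with a pseudocount of 1 and 0.26 with 0.1, where the median over all genes also shifted, to 0.11 and 0.16.

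**Figure D3:**
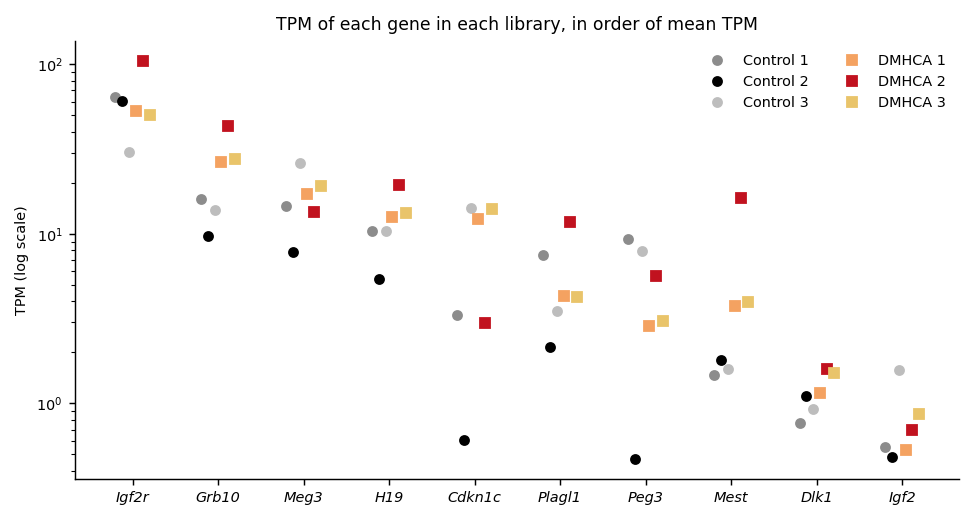
TPM of the 10 genes in each of the 6 libraries, on a log axis, in order of the mean over 5 samples. Circles are control and squares DMHCA libraries. Igf2r is highest, with 30.3 to 105 TPM, Igf2 and Dlk1 are lowest, and the low circles of Cdkn1c and Peg3 are control library 2.

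By mean TPM over the 5 samples, the order of the 10 genes was Igf2r (62.4), Grb10 (22.1), Meg3 (16.1), H19 (11.7), Cdkn1c (6.87), Plagl1 (5.84), Peg3 (5.25), Mest (4.98), Dlk1 (1.15) and Igf2 (0.8). Read within each library, Igf2r exceeded Grb10 in 6 of 6, by 1.82 to 6.24 times, and Mest exceeded Dlk1 in 6 of 6, by 1.63 to 10.1 times. The other 7 pairs of neighbours changed order in at least 1 library. Grb10 lay above Meg3, Meg3 above H19 and Dlk1 above Igf2 in 5 of 6 libraries, and Peg3 lay above Mest in 2 of 6. Dlk1 and Igf2, at most 1.6 and 1.57 TPM, lay below every value of Igf2r, Grb10, Meg3, H19 and Plagl1.

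The samples did not take the genes evenly. Control tumor 2 was the lowest sample for 7 of the 10 (H19, Igf2, Peg3, Meg3, Cdkn1c, Plagl1 and Grb10), while it was the lowest for 24.7% of all genes. DMHCA tumor 2 was the highest for 5 (H19, Igf2r, Mest, Plagl1 and Grb10), against 22% of all genes. The values of control tumor 2 were therefore set beside the parental copy that is read and the chromosome, a view chosen after its values were seen and given with no test. For each gene, the log2 ratio of control tumor 2 to the median of the other 4 samples was taken, with 1 added to each. The genes of this view are a chosen part of the imprinted genes. Tested ones such as Slc22a3, Tfpi2 and Sfmbt2 were left out.

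From the paternal copy of chromosome 7, 10 tested genes were taken. Control tumor 2 was the lowest sample for 8 (24.7% of all genes), with a median log2 ratio of -2.05. The log2 ratio was below -1 for 7. Among genes with a mean of at least 100 normalized counts, 31.2% on chromosome 7 and 7.61% elsewhere were below -1. Snrpn, Snurf and Snhg14 belong to 1 domain and are not independent, so these counts and the median are a description. The lowest genes lay in more than 1 domain along the chromosome. Peg3 had -3.44. Snrpn, a splicing protein gene of the domain that matches the human Prader-Willi region, held 974, 59.2 and 633 normalized counts in control tumors 1, 2 and 3 and 783 and 1374 in the DMHCA samples, a log2 ratio of -3.87. Snurf, which shares a transcript with Snrpn so that their reads cannot be told apart, held 0 counts in control tumor 2 and 40.3 to 89.8 elsewhere. Snhg14, the long RNA downstream of Snrpn, had -2.88. Kcnq1ot1 held 2525, 498 and 3963 in the controls and 2315 and 1599 after DMHCA, with a log2 ratio of -2.28. Mkrn3 had -1.82 and Peg12 -1.31, both from 6 counts in control tumor 2. Igf2 had -0.58 and Usp29, next to Peg3, had -0.63, and Ndn, with -0.01, did not stand apart.

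For the tested genes read from the maternal copy of chromosome 7, in some of them only in certain tissues, the log2 ratios went both ways in control tumor 2. Cdkn1c had a log2 ratio of -2.86, Zim1 -1.04, Ube3a -0.91, H19 -0.86, Tssc4 -0.72 and Atp10a -0.61. Kcnq1 had -0.02, Phlda2 0.46, Ascl2 0.76 and Slc22a18 0.84. Over these 10 genes the median was -0.67, and control tumor 2 was the lowest sample for 5. The 14 paternally read genes of other chromosomes had a median of -0.36 and ranged from -1.48 (Peg13) to 0.36 (Zrsr1). Among them Plagl1 had -1.04, Mest -0.20 and Dlk1 0.11. The 5 maternally read genes elsewhere, with Igf2r at 0.46, Grb10 at -0.74 and Meg3 at -0.55, had a median of -0.34.

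**Figure D4:**
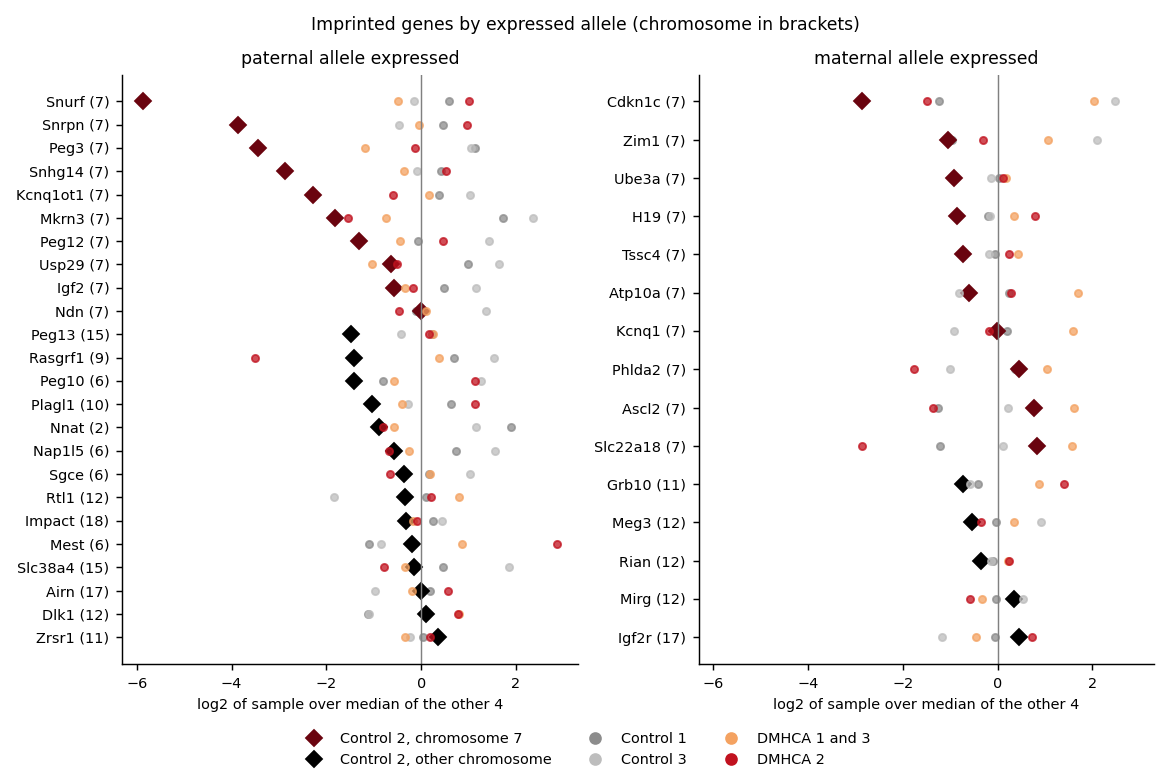
Log2 ratio of each sample to the median of the other 4, for 39 imprinted genes, with the paternally read ones on the left and the maternally read ones on the right and the chromosome in brackets. Diamonds are control tumor 2, dark red on chromosome 7, and circles are the other samples. The diamonds of Snurf, Snrpn, Peg3, Snhg14 and Kcnq1ot1 and, on the right, of Cdkn1c lie below -2 and below the circles of the same genes.

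Chromosome 7 as a whole was also lower in control tumor 2. Among the 1098 genes of chromosome 7 with a mean of at least 100 normalized counts, the median log2 ratio was -0.75, while the other 19 chromosomes with enough genes had medians from -0.29 to 0.30. The shift ran along the whole chromosome, with medians from -0.81 to -0.61 in 8 windows of 20 Mb. H19 (-0.86) and Igf2 (-0.58) were thus near the median of their chromosome, and Peg3 (-3.44) and Cdkn1c (-2.86) were below it. On chromosome 7, 5.56% of the 1098 genes had a log2 ratio below -2, and 2.59% of 13069 genes elsewhere. For DMHCA tumors 1 and 3 the median of chromosome 7 was 0.48, for DMHCA tumor 2 it was 0.11, and for control tumors 1 and 3 it was 0.01 and -0.11. No other chromosome that holds a gene of the set (6, 10, 11, 12 or 17) had a median beyond 0.23 in either direction in any sample. Without control tumor 2 the log2 fold change, DMHCA minus control, was 0.58 for H19, -0.87 for Igf2, -1.10 for Peg3 and -0.40 for Cdkn1c.

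**Figure D5:**
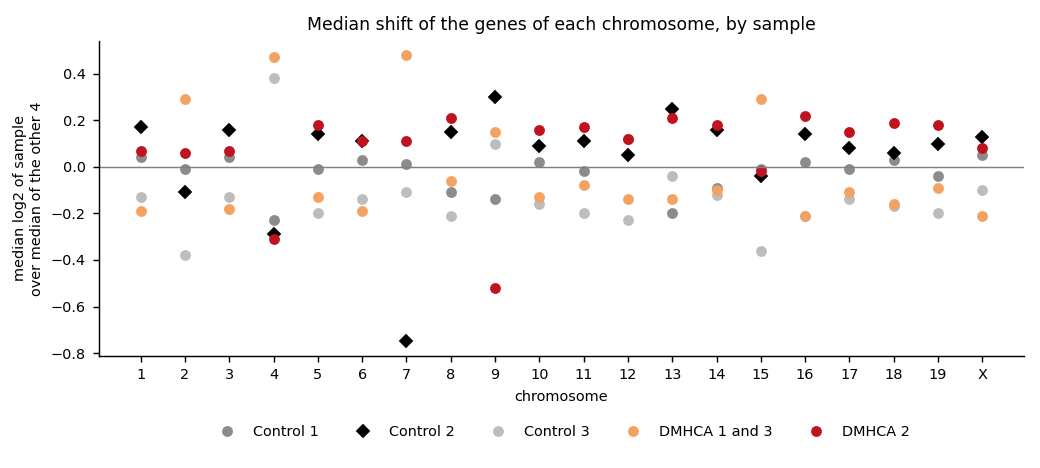
Median log2 ratio of each sample to the median of the other 4, over the genes of each chromosome with a mean of at least 100 normalized counts. Each marker is a sample. The black diamond of control tumor 2 on chromosome 7 lies at -0.75, and DMHCA tumors 1 and 3 lie at 0.48 there.

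Among the partners of these genes in their imprinted domains, 17 of 28 listed were tested, with a median log2 fold change of 0.30 and 0 past the adjusted edgeR test. Kcnq1 had 1.11 (SE 0.64), Cobl, next to Grb10, 0.63 (SE 0.42), Airn 0.42 (SE 0.43) and Kcnq1ot1 -0.25 (SE 0.75). At an unadjusted p under 0.05 there was 1 of 17 (7.61% of all genes), Slc22a3, an organic cation transporter gene of the Igf2r domain. Slc22a3 held 50.8, 20.5 and 163 normalized counts in the controls and 1.81 and 1.21 after DMHCA. The 27 tested imprinted genes of other domains had a median log2 fold change of -0.12. Of these, 2 were under the unadjusted threshold, a share close to the 7.61% of all genes. Atp10a, on chromosome 7, had a log2 fold change of 1.31 (SE 0.47). It held 1149, 759 and 663 normalized counts in control tumors 1, 2 and 3, 3079 in DMHCA tumors 1 and 3 and 1170 in DMHCA tumor 2. Sfmbt2 had -3.63 (SE 1.16), with 34.6, 17.1 and 149 in the controls and 6.62 and 3.64 after DMHCA. Slc22a3 and Sfmbt2 are named for their small counts of calls, after their values were seen. Snrpn had 0.96, Nnat -1.19, Ppp1r9a -0.87, Gnas 0.56 and Peg10 0.31. The relatives of Plagl1, Grb10 and Dlk1, 11 of 13 tested, had a median of -0.01. Of these, Notch1 held 5698, 1582 and 4981 normalized counts in the controls and 13999 and 2322 after DMHCA. Dll4 had a log2 fold change of 0.70, while the adaptor Grb14 had -1.60 and Notch4 -1.09, and 0 were under either edgeR threshold.

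The genes most alike in pattern were sought for Mest, Peg3 and Cdkn1c, which spanned over 2 log2 units, among 12147 genes over the 5 samples. Likeness was the root mean square (RMS) difference of centred log2 counts, a description over samples that share their libraries. For Mest they were Tmem189 (RMS 0.27), with 4207 to 6338 normalized counts in the controls, 11046 in DMHCA tumors 1 and 3 and 35000 in DMHCA tumor 2, and its neighbour Ube2v1 (0.33). For Peg3 they were Hoxb4 (0.42) and Snhg14 (0.52), which is imprinted and on the same chromosome. For Cdkn1c they were Tppp (0.38) and H2-Q5 (0.39).

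Several marker lists moved with the samples, and their part in the values above was not tested. The 7 adipocyte markers summed to 127 to 944 TPM in the controls and 76.6 to 84.1 after DMHCA. Of the 7, 5 (Adipoq, Plin1, Cidec, Fabp4 and Lep) were below an unadjusted p of 0.05 in edgeR (7.61% of all genes). Lep was at 0 TPM in DMHCA library 3 only. Dlk1 and Mest, which are known from fat tissue, were higher after DMHCA, and a link of their values to fat content was not tested. The 5 luminal markers summed to 2930 to 3591 TPM in the controls and 4063 to 4422 after DMHCA, although on normalized counts only 2 of the 5 were higher. The 8 fibroblast markers summed to 324 TPM in control library 2, 715 and 931 in control libraries 1 and 3 and 604 to 668 after DMHCA. Collagens make up most of this sum, and control tumor 2 was the lowest sample for 4 of the 8 markers. Of the 8, 7 had negative log2 fold changes (median -0.53), and Fap (-0.92) had both DMHCA samples below every control. The B cell markers summed to 202 TPM in control library 3, which was the highest for Igf2, Meg3 and Cdkn1c, and to 0.22 to 23.8 in the other libraries. The T cell markers summed to 81.2 TPM in that library and to 0.91 to 9.34 in the others. The skeletal muscle markers summed to 240 TPM in DMHCA library 2, the library highest in Mest, and to 546 to 980 in the others. The 7 basal markers summed to 32.6 to 125 TPM in the controls and 47.6 to 62.6 after DMHCA, and all 7 had negative log2 fold changes with a median of -1.52, of which Trp63 was under an unadjusted p of 0.05 with no overlap. The pericyte (50.8 to 113), endothelial (50.1 to 86.3) and macrophage (109 to 209) sums overlapped between the groups. Single markers of these lists did not overlap, namely Cdh5 (log2 fold change 0.81) and Tie1 (0.58) of the endothelium, both higher after DMHCA, and Aif1 (-0.91) of the macrophages, lower. Of these lists, Cdh5 and Aif1 were under an unadjusted p of 0.05, as were the T cell gene Cd3d and all 4 B cell markers.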

How the data were processed

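The series holds 6 Illumina RNA libraries of mammary tumors, labelled as 3 control and 3 DMHCA samples. The authors made the tables with RSEM 1.3.1 and Bowtie2 2.4.1 after cutadapt 2.9 and FastQC 0.11.9, per the labels on mm10, with Ensembl release 99 genes. The deposited values are expected counts per gene (estimated counts, of which 19.6 to 23.5% of the 55385 values per library, zeros included, had a decimal part), TPM, FPKM and the mean transcript length. FPKM was not used here. Whether strand was used in counting was not given in the sources used here.

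Expected counts were rounded, DMHCA libraries 1 and 3 were summed, and edgeR 4.0.16 (R 4.3.3) fitted 3 control and 2 DMHCA samples with TMM scaling, filterByExpr (minimum count 10) and the quasi-likelihood test. Normalized counts are TMM-scaled. P-values were adjusted by Benjamini-Hochberg over 19427 genes. DESeq2 1.42.0 and limma 3.58.1 (on log2(TPM + 1)) were alternatives, as were other filters and each library left out. Gene positions come from GENCODE release 21, which held 99.6% of the gene IDs, and sequences from RefSeq on GRCm38.p6.

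The members and lists were chosen with earlier results of these data known. All 10 genes are named. From every other list the text names up to 4 genes, those with the largest log2 fold changes in each direction at a mean of 100 or more normalized counts, together with Kcnq1ot1, Airn, Rian, Peg10, Gnas, Igf1, Igf1r and Igfbp5. Outside this rule stand domain neighbours named with their gene (Slc22a18, Phlda2, Ascl2, Tssc4, Copg2), Grb7 and Cdkn1b as partners of a TPM ratio, genes most alike in pattern, and single genes under an unadjusted p. These, the genes named for control tumor 2 and the chromosome medians were chosen after their values were seen.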

Additional observations from a re-analysis of the deposited data

How the results depend on the processing

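Over 17 alternatives, 154 of 170 values of the 10 genes kept their direction and their side of the threshold, 4 passed it newly and 12 changed direction. H19, Igf2, Mest, Dlk1 and Grb10 kept their sign in all 17, although on log2(TPM + 1) Igf2 came to -0.09 and Dlk1 to 0.35. The number of genes with an adjusted p under 0.05 was 0 in edgeR, 244 in DESeq2 on the 5 samples, 846 in DESeq2 on the 6 libraries and 16 in edgeR with no filter on low counts. Of the 10 genes, 2 passed in each DESeq2 fit, Mest with log2 fold changes of 2.37 and 2.03 and Grb10 with 1.26 and 1.15. The cause was not tested.

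Values that changed direction were those of Peg3 and Meg3 on the TPM scale and 4 genes when a library was left out. Peg3 went to 0.00 with a pseudocount of 1, with or without the filter, and to 0.26 with 0.1. Meg3 went to 0.10, 0.10 and 0.12 in the same fits. TPM scaling also moved the median over all genes, from -0.03 to 0.11 with a pseudocount of 1 and to 0.16 with 0.1 (-0.00 without the filter), so against that median Meg3 was not higher in either filtered fit. With each library left out, Meg3 ranged from -0.44 to 0.22, Cdkn1c from -0.40 to 1.83, Plagl1 from -0.09 to 0.92 and Igf2r from -0.12 to 0.64.

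The labels give both groups numbers 1 to 3, but the mice differ, so the numbers were not taken to pair the samples. Same-numbered libraries had correlations of their deviations of -0.0468, 0.316 and 0.33. Libraries of unlike number had -0.363 to 0.319, so these values do not decide the pairing. In edgeR on the 6 libraries the replicate block left 0 genes at an adjusted p under 0.05 (3207 at an unadjusted p), as did the fit without it (2912). With the block, Mest had a log2 fold change of 1.71 and Grb10 1.11, at adjusted p-values of 0.203 and 0.188. Depth limits Igf2 and Dlk1, which held 28 to 83 counts per library. Groups of 3 or fewer samples are too small for a test of single outlying samples, and none was run.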

Other observations

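The RNA of 16 genes that keep or remove DNA methylation was also counted, 13 that set, bind or maintain imprints and the 3 oxidases Tet1, Tet2 and Tet3. Of the 13, 4 had both DMHCA samples above every control (Trim28, Ctcf, Dnmt3b and Uhrf1; 13.8% of all genes) and 1, Dppa3, had both below (12.2% of all genes). All 3 oxidase genes had both DMHCA samples above. In edgeR 0 of the 16 passed the adjusted test. At an unadjusted p under 0.05 (7.61% of all genes) there were 4 genes, each with a positive log2 fold change. Trim28, the scaffold that holds methylation at imprinted regions, had 9689, 5251 and 7103 normalized counts in control tumors 1, 2 and 3 and 14311 and 16276 after DMHCA, a log2 fold change of 1.06 (SE 0.33). Dnmt3b, a DNA methyltransferase, had 214, 343 and 245 in the controls and 727 and 520 after DMHCA, a log2 fold change of 1.22 (SE 0.43). Uhrf1, which brings the maintenance methyltransferase to replicated DNA, had 1.09 (SE 0.42), and Tet2, which oxidises methylcytosine, had 0.78 (SE 0.30). Their adjusted p was 0.644 in edgeR, and DESeq2 on the 5 samples gave 0.224 for Trim28 and 0.158 for Dnmt3b. DESeq2 passed both (0.049 and 0.0133) only when DMHCA libraries 1 and 3, which are nearly the same, were counted as separate samples. Ctcfl had -0.53 and the imprint-binding factor Zfp57 had -0.33, and the groups overlapped for both. Trim28, Tet2 and the genes named for non-overlap are named after their values were seen. Trim28 lies on chromosome 7, and control tumor 2 was its lowest sample. The median of that chromosome was -0.75 in control tumor 2 and 0.48 in DMHCA tumors 1 and 3. The part of these shifts in the Trim28 values was not tested. Methylation itself was not measured.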
